A study of Mus musculus and Ochotona curzoniae and Rattus norvegicus with 18 samples.

Results

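The genes described here are 10 members of the WNT signalling system, measured in cultured fibroblasts of the Tibetan pika and the mouse. They are the ligand genes WNT2, WNT4 and WNT5A, the secreted inhibitor genes SFRP1, SFRP2, DKK1, DKK2 and DKK3, and the intracellular genes AXIN2 and LEF1. They were chosen by symbol, and all 10 were found among the 14418 genes whose symbol occurs once in the pika table and once in the mouse table. The series set out to compare core clock gene levels between fibroblasts of several species and to map binding of Epas1, a hypoxia-inducible factor. The values compared come from 3 libraries of Tibetan pika (Ochotona curzoniae) fibroblasts and 3 libraries of C57BL/6J mouse fibroblasts. Both were grown in DMEM with 10% serum and lysed at 90% confluency, with no treatment or genetic change in the labels. The source of both is labelled as fibroblast and the tissue as epidermis, and animal age, passage and the number of animals are not in the labels. Rat and rabbit libraries and the ChIP-seq samples were not analysed here.

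WNT proteins are secreted, lipid-modified signals that bind Frizzled receptors together with LRP5 and LRP6 or with other co-receptors. In the canonical branch they spare beta-catenin from breakdown, and beta-catenin then acts with TCF and LEF factors on genes such as AXIN2. SFRP proteins bind WNT proteins outside the cell, while DKK1 and DKK2 bind LRP5 and LRP6. In skin, dermal WNT signals and their inhibitors take part in hair follicle formation and cycling.

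Library totals behind the deposited FPKM (reads scaled to gene model length and library size) ranged from 7703576 to 8481030 reads in pika and from 3663102 to 5758950 in mouse. Every library was scaled to a total of 1000000 over the joined genes, and levels below are on this rescaled FPKM scale unless stated. The labels do not state whether replicate libraries are separate animals or separate cultures, so p-values reflect only library-to-library spread, which may be technical. Species, genome and gene models cannot be told apart in this design, and pika models were shorter, with a median mouse-over-pika length ratio of 2.25. The 10 fibroblast markers that could be joined all averaged at least 1 FPKM in both species, with summed levels of 13022 to 13443 in pika and 14014 to 14471 in mouse. Abundant genes such as COL1A1, VIM and FN1 carried these sums, and single markers differed in both directions. PDGFRA averaged 3.47 in pika and 65.1 in mouse, and COL6A1 245.8 in pika and 651.1 in mouse. DCN averaged 269.0 in pika and 115.3 in mouse, and COL1A2 1238 in pika and 909.1 in mouse. LUM and FN1 were also higher in pika, and PDGFRB, COL6A2 and VIM lower. Of 5 keratinocyte markers, all were at 0 in pika, and their sum was 5.07 to 6.14 in mouse. Markers of endothelial cells summed to 0.707 to 1.54 in pika and 32.0 to 39.0 in mouse, where TEK alone averaged 31.4. Those of macrophages and leukocytes summed to 2.94 to 4.73 in pika and 22.9 to 36.7 in mouse, where CD68 averaged 15.8 and CSF1R 12.2. Melanocyte markers summed to 68.1 to 78.5 in pika and 54.8 to 58.3 in mouse, mostly MITF and PMEL in pika and MITF in mouse. MITF averaged 40.2 in pika and 50.5 in mouse, and PMEL 31.6 in pika and 4.97 in mouse. Dermal papilla and smooth muscle markers summed to 32.9 to 37.9 in pika and 9548 to 9803 in mouse, where the smooth muscle actin gene ACTA2 made up most. ALPL, DES and MYH11 were also lower in pika. SOX2 went the other way, at 4.04 in pika and 0.565 in mouse, and CORIN was low in both, at 0.622 in pika and 0.840 in mouse. ALPL was at 0 in every pika library, as were CDH5, KDR, PTPRC and ADGRE1, and TYR was at 0 in every mouse library. These genes were low in the other species too. ALPL averaged 6.54, CDH5 1.21, KDR 1.17, PTPRC 0.127 and ADGRE1 2.30 in mouse, and TYR 0.625 in pika. The part of these marker differences in the values below was not tested, and in bulk RNA fewer cells of a type and less RNA per cell cannot be told apart.

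The 3 ligand genes and SFRP2 were lower in pika fibroblasts than in mouse fibroblasts. DKK2 was lower in pika, and DKK1 was read in pika only. DKK3 was higher in pika, AXIN2 was not called, and LEF1 was near the limit of detection in both species. A call needed an adjusted p under 0.05 by limma-trend and a log2 fold change of at least 1 in size. By this rule 2 of 9 tested members were called higher, 5 lower and 2 not called. Among all 10348 tested genes, 52.2% were called, 28.7% higher and 23.5% lower, so calls are common between these species. The median log2 fold change was -1.13 over the 9 tested members and 0.21 over all tested genes. The libraries of the species did not overlap for 8 of the 9 tested members, AXIN2 being the exception, nor for LEF1. The same held for 89.0% of all tested genes and 73.0% of all joined genes, so the members' count lies near the background.

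**Figure D1:**
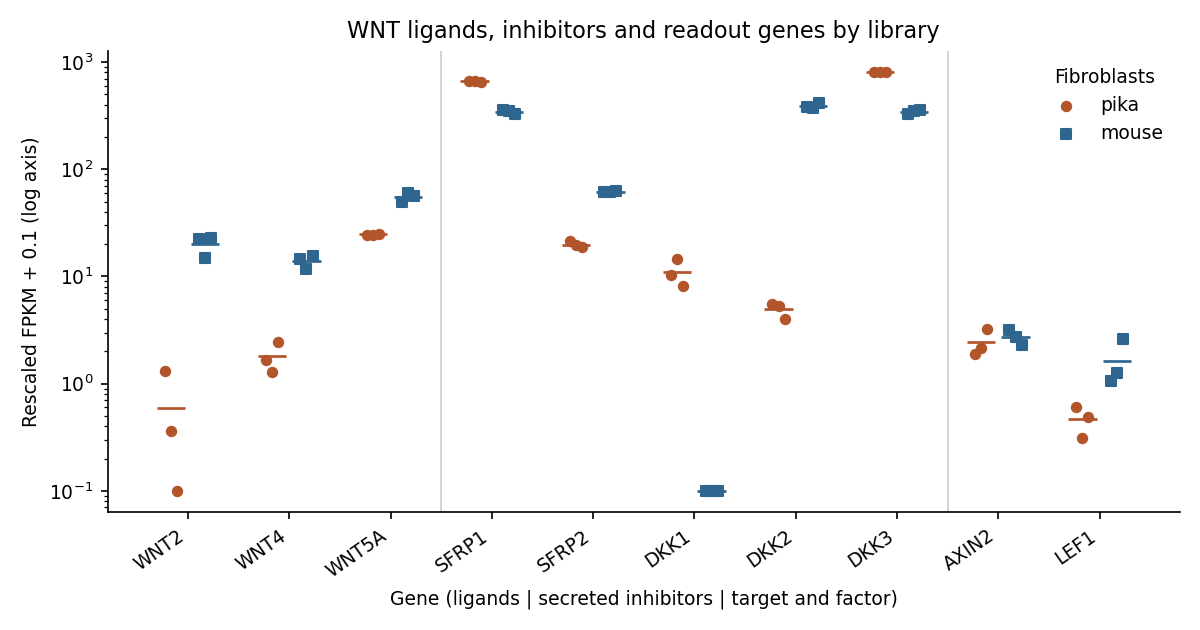
Rescaled FPKM plus 0.1 on a log axis for each of the 10 genes, with pika libraries as circles left of mouse libraries as squares, 3 of each, and the mean as a bar. DKK2 lies between 3.88 and 5.39 in pika and between 375.5 and 414.4 in mouse, and DKK1 sits at the bottom of the axis in mouse because it is 0 there.

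WNT5A, best known for beta-catenin-independent signalling through ROR2, was the most abundant of the 3 ligand genes in both species. It was at 24.5, 24.2 and 25.02 in the pika libraries, against 49.1, 60.0 and 55.9 in the mouse libraries. Every pika library lay below every mouse library, and the log2 fold change was -1.13 (SE 0.09, adjusted p = 1.2e-06 by limma-trend). This value depends on the gene models, since the pika model had 856 bases and the mouse model 7822. Without division by length the log2 fold change was -3.19, and without rescaling it was 0.13.

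WNT2, a ligand of the canonical branch, was close to 0 in pika, at 1.23, 0.258 and 0, against 22.3, 14.8 and 22.6 in mouse. These levels rested on 6 pika reads over 3 libraries and 123 mouse reads, and pika replicate 3 had none. The log2 fold change was -3.87 (SE 0.30, adjusted p = 1.2e-06 by limma-trend), and the pika mean was 0.495 ± 0.646 against 19.9 ± 4.44 in mouse (SD, n = 3 each). With reads this low the fold depends on the pseudocount, and with 0.1 in place of 1 it was -5.76 on the log2 scale. WNT4, which acts in kidney and reproductive tract development, was at 1.56, 1.17 and 2.35 in pika, against 14.4, 11.7 and 15.6 in mouse. All pika libraries were low, with 23 reads in sum against 158 in mouse, and the log2 fold change was -2.48 (SE 0.19, adjusted p = 1.3e-06 by limma-trend). Together the 3 ligand genes summed to 26.8 ± 0.985 in pika and 88.8 ± 4.56 in mouse (SD, n = 3 each).

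Among the SFRP genes, SFRP2 was lower in pika and SFRP1 stayed inside the fold minimum. SFRP1 was at 666.5, 671.5 and 649.2 in pika, against 356.5, 351.4 and 328.6 in mouse. The libraries of the species did not overlap, but the log2 fold change of 0.94 (SE 0.04, adjusted p = 1e-08 by limma-trend) was under the minimum. SFRP1 ranked 207 to 212 of the 14418 joined genes in the pika libraries and 474 to 532 in the mouse libraries. Its direction also turned with the treatment of length: without division by model length (1018 bases in pika, 4372 in mouse) the log2 fold change was -0.12, and without rescaling it was 2.22.

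SFRP2 was at 21.4, 19.4 and 18.5 in pika, against 61.5, 61.2 and 62.2 in mouse. All pika libraries were lower, with a log2 fold change of -1.60 (SE 0.08, adjusted p = 4.5e-08 by limma-trend), which shrank to -0.32 and was not called without rescaling. Within a library, the ratio of SFRP1 to SFRP2 does not depend on scaling. That ratio was 31.2, 34.7 and 35.03 in pika, against 5.80, 5.74 and 5.28 in mouse. Counted as reads without length it was 29.98 ± 1.91 in pika and 11.4 ± 0.574 in mouse (SD, n = 3 each), so the order of the species was the same.

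The mouse genes lie at chr3:132085266-132180304 (Dkk2), chr7:112116019-112159482 (Dkk3) and chr19:30545876-30549496 (Dkk1) in GRCm38.p6. DKK2, which binds LRP6 and can act as inhibitor or activator depending on its partners, was at 5.39, 5.20 and 3.88 in pika, against 377.1, 375.5 and 414.4 in mouse. The mouse mean was 80.7 times the pika mean, and the log2 fold change was -6.07 (SE 0.11, adjusted p = 7.1e-11 by limma-trend). Over 3 libraries DKK2 had 64 reads in pika and 3847 in mouse. By FPKM, DKK2 was the highest of the 10 genes in mouse, at rank 405 to 449 of the joined genes, and was at rank 8838 to 9103 in pika. In summed mouse reads not divided by length, SFRP1 was above it, at 4031.

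DKK3, a divergent family member that is not an established LRP5 or LRP6 antagonist, was at 809.6, 811.4 and 813.4 in pika, against 327.2, 349.6 and 356.6 in mouse. All pika libraries were higher, with a log2 fold change of 1.23 (SE 0.04, adjusted p = 1.4e-09 by limma-trend). The pika model had 1067 bases and the mouse model 3359, and without division by length the log2 fold change was 0.63, under the minimum. DKK3 was the highest of the 10 genes in pika, at rank 173 to 178, and was at rank 480 to 535 in mouse.

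DKK1, the classical LRP5 and LRP6 antagonist, was at 10.1, 14.4 and 8.03 in pika and was listed at 0 in every mouse library. In whole reads it had 46, 62 and 38 in pika and none in mouse. Per 1000000 reads that was 5.64, 8.05 and 4.48 in pika, while the limit that a count of 0 allows (3 reads of the total) was 0.521, 0.819 and 0.633 in the mouse libraries. This limit covers counting error only. DKK1 was called higher by limma-trend (adjusted p = 1.9e-07), and no fold is given against a group at 0.

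The promoters of the mouse genes were searched for the TCF/LEF motif forms CTTTGAT and CTTTGAA on both strands, in the 250 bases before each RefSeq start (GRCm38.p6). Of 32851 such windows, 7.48% held a match. Windows were at hand for 7 of the 10 genes, 10 windows in all, and 1 held a match: CTTTGAA in that of Dkk1, with its first base 117 bases before the start. Shown are Dkk1 and Dkk2, the inhibitor genes with opposite patterns, and Axin2, the usual transcriptional readout of the canonical branch. They lie at chr19:30549497-30549746 (minus strand), chr3:132085042-132085291 (plus strand) and chr11:108920099-108920348 (plus strand). Capitals mark the motif, and each sequence is written 5′ to 3′ toward the start.
Dkk1: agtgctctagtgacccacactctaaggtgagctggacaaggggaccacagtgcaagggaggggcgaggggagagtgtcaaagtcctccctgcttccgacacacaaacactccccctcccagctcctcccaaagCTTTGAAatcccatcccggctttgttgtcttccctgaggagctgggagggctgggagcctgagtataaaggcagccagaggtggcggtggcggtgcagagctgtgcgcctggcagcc
Dkk2: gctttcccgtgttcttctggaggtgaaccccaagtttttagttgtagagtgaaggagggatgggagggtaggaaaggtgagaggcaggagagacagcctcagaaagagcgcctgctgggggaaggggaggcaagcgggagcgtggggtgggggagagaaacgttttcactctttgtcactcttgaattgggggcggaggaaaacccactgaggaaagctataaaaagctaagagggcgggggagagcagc
Axin2: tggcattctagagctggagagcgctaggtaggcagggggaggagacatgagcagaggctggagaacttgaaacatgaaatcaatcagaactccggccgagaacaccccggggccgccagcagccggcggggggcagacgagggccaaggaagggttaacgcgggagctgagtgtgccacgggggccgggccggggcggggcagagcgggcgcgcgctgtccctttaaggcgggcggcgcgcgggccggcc
The 4 Lef1 windows and those of Dkk2, Axin2, Sfrp2, Wnt2 and Wnt4 held neither form. The match is a description of the mouse sequence, and pika promoter sequence was not used here.

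Shares within a library do not depend on the scaling between species. DKK3 made up 98.1, 97.6 and 98.6% of the summed DKK level in pika, against 46.5, 48.2 and 46.2% in mouse. DKK2 made up 0.653, 0.626 and 0.470% of it in pika, against 53.5, 51.8 and 53.8% in mouse. WNT5A took 91.9 ± 2.34% of the summed ligand level in pika and 62.0 ± 6.47% in mouse, and WNT2 took 1.83 ± 2.36% in pika and 22.4 ± 4.68% in mouse (SD, n = 3 each). The ligand shares moved with the long mouse Wnt5a model. In reads not divided by length WNT5A held 89.2% in pika and 80.5% in mouse, with pika libraries from 86.8 to 92.5% and mouse libraries from 77.6 to 85.04%.

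**Figure D2:**
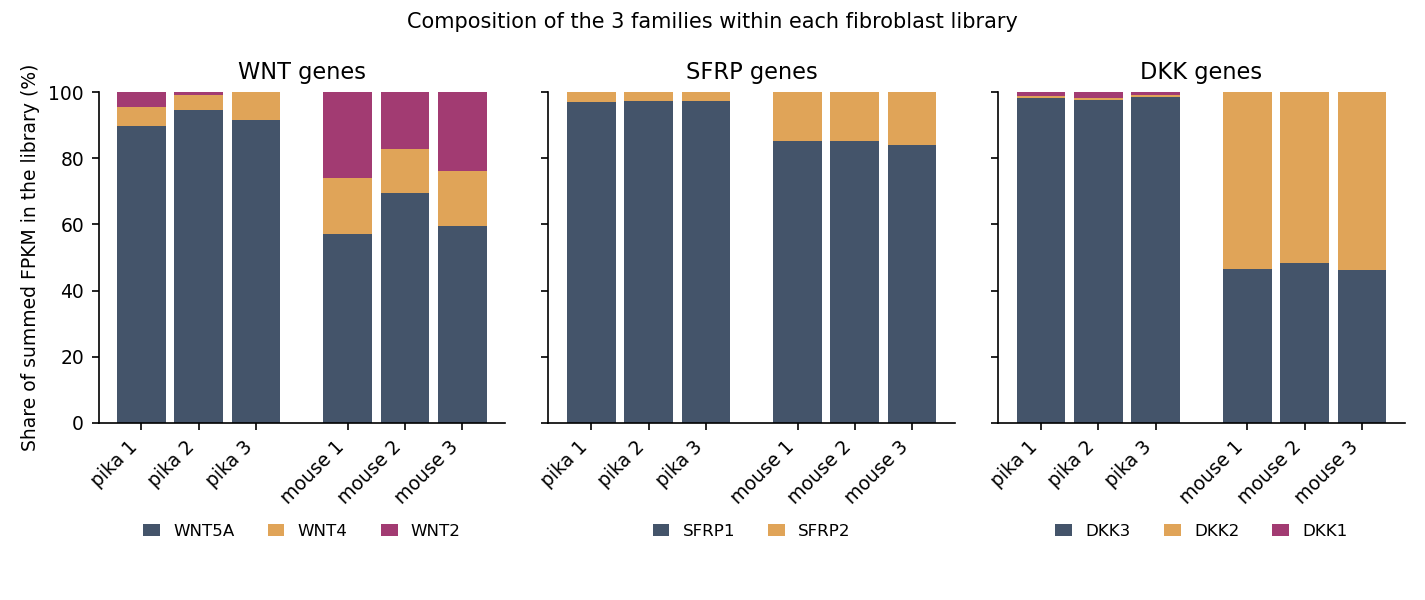
Share of each gene in the summed FPKM of its family, in percent, within each of the 3 pika and 3 mouse libraries. DKK3 fills 97.6% or more of the DKK bar in pika and 46.2 to 48.2% in mouse, where DKK2 takes the rest.

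The summed level of the 5 inhibitor genes was 55.5, 59.4 and 54.5 times that of the 3 ligand genes in the pika libraries, against 13.1, 13.2 and 12.4 times in the mouse libraries. Every pika library lay above every mouse library. In pika SFRP1 and DKK3 together carried nearly the whole inhibitor sum, and in mouse it was shared by DKK2, SFRP1 and DKK3. DKK3 averaged 811.5 of an inhibitor sum of 1509 in pika and 344.4 of 1141 in mouse. As described above, DKK3 is not an established LRP5 or LRP6 antagonist and DKK2 can also act as activator. The sum is therefore no measure of inhibition. The ratio describes RNA levels of 8 chosen genes and was not tested.

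AXIN2, a scaffold of the beta-catenin destruction complex and a feedback target of the canonical branch, was at 1.78, 2.07 and 3.14 in pika, against 3.05, 2.63 and 2.21 in mouse. The species overlapped, with a log2 fold change of -0.14 (SE 0.20, adjusted p = 0.52 by limma-trend), on 75 reads in pika and 39 in mouse. At this depth a small difference was not detectable. Without rescaling the sign turned, with a log2 fold change of 0.46 that was inside the minimum.

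LEF1, a partner of beta-catenin on DNA and a marker of dermal papilla and early hair follicle cells, was not tested. The filter, a mean of 1 in at least 1 species, was applied to the deposited FPKM before rescaling, where LEF1 had 0.233, 0.0988 and 0.179 in pika, against 0.178, 0.217 and 0.480 in mouse. After rescaling it was at 0.505, 0.213 and 0.388 in pika, against 0.955, 1.15 and 2.52 in mouse. All pika libraries were below all mouse libraries, on 11 reads in pika and 36 in mouse, of which mouse replicate 3 held 20.

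The order of the levels differed between the species. In pika it ran DKK3, SFRP1, WNT5A, SFRP2, DKK1, DKK2, AXIN2, WNT4, WNT2 and LEF1, and in mouse DKK2, SFRP1, DKK3, SFRP2, WNT5A, WNT2, WNT4, AXIN2, LEF1 and DKK1. Neighbours whose libraries overlapped in pika were AXIN2 and WNT4, WNT4 and WNT2, and WNT2 and LEF1. In mouse they were SFRP1 and DKK3, WNT2 and WNT4, and AXIN2 and LEF1. Other neighbours did not overlap. The order also depends on the gene models. In reads not divided by length, summed over 3 libraries, pika SFRP2 (254) was above WNT5A (237). In mouse WNT5A (1131) was then above SFRP2 (354), and SFRP1 (4031) above DKK2 (3847).

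The scale between species moved every value, since the median log2 fold change of all tested genes was 0.21 with the shared total, 0.04 after median-of-ratios scaling and 1.29 when libraries were not rescaled. Set against that median, WNT5A was at -1.34, -1.34 and -1.16 under these scales, SFRP2 at -1.81, -1.81 and -1.60, and SFRP1 at 0.73, 0.72 and 0.93. DKK2 was at -6.29, -6.28 and -5.81 and DKK3 at 1.02, 1.01 and 1.23. Subtracting the median removes only a shift common to all genes, and with the pseudocount low genes shifted by other amounts. These values place each gene among all tested genes and are no separate check of its direction. Without division by length SFRP1 was at -0.16.

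**Figure D3:**
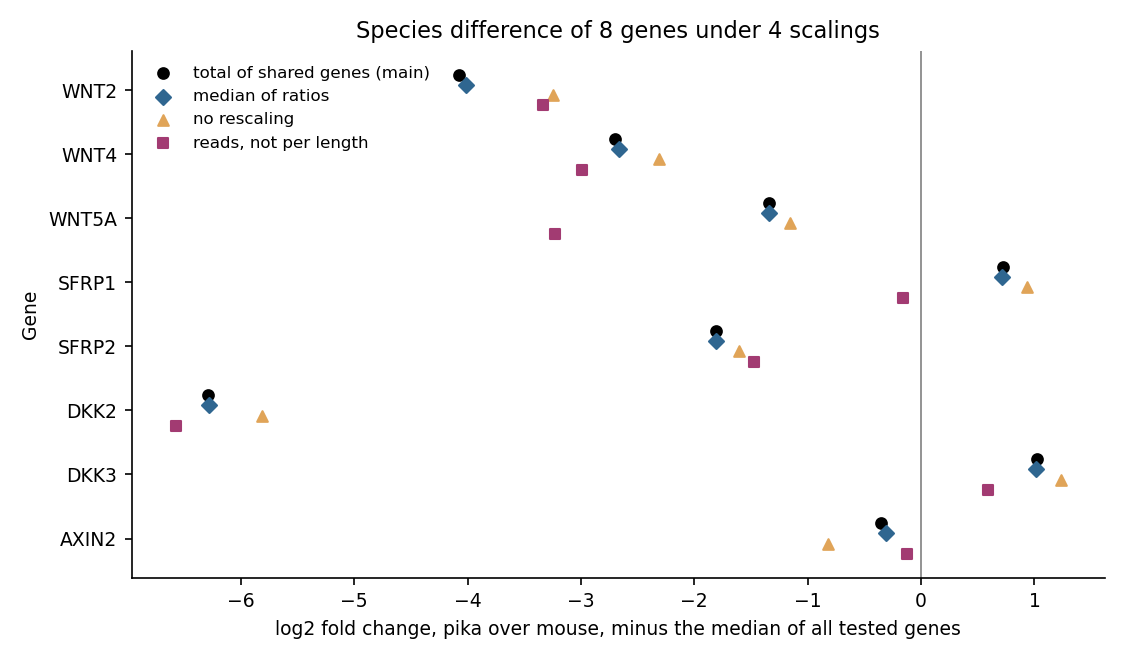
Log2 fold change of 8 genes, pika over mouse, minus the median of all tested genes, with the shared-gene total, median-of-ratios scaling, no rescaling, and reads not divided by length. DKK2 lies between -6.57 and -5.81 under all 4, while SFRP1 lies at -0.16 for reads and between 0.72 and 0.93 otherwise. DKK1, at 0 in mouse, and LEF1, not tested, are not drawn.

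Other genes of the pathway were counted from lists by role. Of 86 further genes, 84 could be joined and 58 passed the filter, of which 7 were called higher in pika, 19 lower and 32 not called. That is 44.8% called, against 52.2% of all tested genes, with a median log2 fold change of -0.42. Of the 26 called genes, 12 were called the same way under all 3 scales and in reads not divided by length, 4 higher and 8 lower. Under at least 1 of them, 4 changed sign. These counts are limited by the recovered reads. WNT5B had none recovered in pika, so it could not be called in reads. PTK7, named after its values were seen, changed sign in reads (0.50) on a recovered mouse length of 851 bases, which may be low by a divisor. Without rescaling the counts were 25 higher and 10 lower.

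Of 16 further ligand genes, 5 were tested and 2 were called lower. WNT5B, the close relative of WNT5A, was at 0.380, 0 and 0 in pika, against 17.9, 19.1 and 22.5 in mouse (log2 fold change -4.22). WNT16 was also lower (-1.99), a call lost without rescaling (-0.64). WNT9A, with 4.76 ± 0.754 in pika and 6.99 ± 2.42 in mouse (SD, n = 3 each), was not called, nor were WNT2B and WNT11, named after their values were seen. WNT3A and WNT9B were listed at 0 in every library. WLS, the carrier that brings WNT proteins to the cell surface, averaged 128.4 ± 2.24 in pika against 186.6 ± 7.18 in mouse and was not called. It was the more abundant of 2 ligand secretion genes tested, neither of which was called. The other, PORCN, named after its values were seen, lay just inside the minimum (0.97). It was called higher without rescaling (1.80) and in reads not divided by length (2.21), while WLS was called lower in those reads (-1.21).

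Of 9 further secreted inhibitor genes, 3 were tested and all 3 were called. FRZB, an SFRP relative, was at 1.13, 0.743 and 0.812 in pika, against 20.7, 25.5 and 20.5 in mouse (log2 fold change -3.62). APCDD1, a membrane-bound inhibitor with a role in hair growth, was lower as well, at 0.344, 0.906 and 0.990 in pika, against 13.99, 15.5 and 19.8 in mouse (-3.33). NOTUM, an enzyme that removes the lipid from WNT proteins, was higher, at 17.8, 18.3 and 16.4 in pika, against 3.10, 4.81 and 0.919 in mouse (2.37), on 9 mouse reads. These 3 calls were kept under the 3 scales and without division by length.

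Of 18 receptor genes, 16 were tested, with 3 called higher, 7 lower and 6 not called. The Frizzled genes did not move one way. FZD6 was higher, at 49.3, 42.0 and 45.9 in pika, against 2.03, 2.80 and 2.68 in mouse (log2 fold change 3.74). FZD8 was lower, at 0.376, 0.792 and 1.08 in pika, against 21.4, 20.8 and 23.2 in mouse (-3.72), and so was FZD7, at 26.7 ± 0.623 in pika and 261.7 ± 4.21 in mouse (-3.25). FZD4 (1.54) and FZD9 (1.63), named after their values were seen, were the other genes called higher. FZD9 rested on 2 mouse reads, and FZD4 was inside the minimum without division by length (0.56). RYK, an atypical WNT receptor, averaged 207.5 ± 1.60 in pika against 276.2 ± 7.07 in mouse and was not called (-0.41).

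In the R-spondin axis, whose ligands raise WNT sensitivity through LGR receptors, 5 of 9 genes were tested. RSPO2 was higher, at 87.8, 86.0 and 99.97 in pika, against 23.6, 17.0 and 20.3 in mouse (log2 fold change 2.12). In reads not divided by length it lay just inside the minimum (1.00). The receptor LGR4 was lower at -1.13, a call lost without rescaling (0.15) and without division by length (-0.34). RSPO3, with 39.2 ± 3.78 in pika and 58.7 ± 4.94 in mouse, was not called, nor were LGR5 and ZNRF3, named after their values were seen. In reads not divided by length RSPO3 (-1.21) and LGR5 (-1.26) were called lower, and without rescaling ZNRF3 was called higher (1.21).

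Of 13 cytoplasmic genes of the pathway tested, 1 was called, or 7.69%, against 52.2% of all tested genes. CTNNB1, which encodes beta-catenin, was abundant, with 470.1 ± 14.2 in pika against 528.5 ± 12.3 in mouse (SD, n = 3 each) and a log2 fold change of -0.17. TNKS2, a tankyrase that marks axin for breakdown, was called higher (1.02), just past the minimum, and lost the call with median-of-ratios scaling (0.85). The low count of calls depends on the scale. Without rescaling CTNNB1 was called higher (1.12). APC, AXIN1, CSNK1A1, CSNK1D, DVL2, DVL3, GSK3A, GSK3B and TNKS, named after their values were seen, were then called higher too. In reads not divided by length AXIN1 was called higher (1.53) and CSNK1A1 lower (-1.13).

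Of 12 further nuclear genes, all were tested, with 1 called higher, 6 lower and 5 not called. TLE2, a Groucho-type corepressor, was at 0.241, 0.255 and 0.464 in pika, against 35.4, 33.5 and 38.1 in mouse (log2 fold change -4.80). PYGO1, a coactivator of beta-catenin, was higher, at 43.1, 41.3 and 37.8 in pika, against 3.18, 4.76 and 4.89 in mouse (2.998). CTNNBIP1, which blocks the contact of beta-catenin with TCF factors, was lower (-1.52), a call lost without rescaling (-0.25). Its pika level rested on 14 recovered reads and a recovered length of 82 bases, against 326 reads and 2792 bases in mouse. The recovered length is the smallest that gave whole reads, so both pika numbers may be low by a common divisor. The log2 fold change in reads not divided by length, -4.29, would then be too negative as well. TCF7L2, a TCF factor, averaged 46.9 ± 1.66 in pika and 51.2 ± 3.41 in mouse and was not called.

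Among further feedback and target genes, 5 were tested. CCND1, which encodes cyclin D1 and responds to many signals besides WNT, was at 54.0, 57.5 and 49.5 in pika, against 325.4, 337.6 and 326.8 in mouse (log2 fold change -2.60). NOTUM, described above, was the gene called higher. MYC, also a target of many pathways, averaged 165.3 ± 9.25 in pika against 82.8 ± 7.47 in mouse and stayed inside the minimum (0.99).

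**Figure D4:**
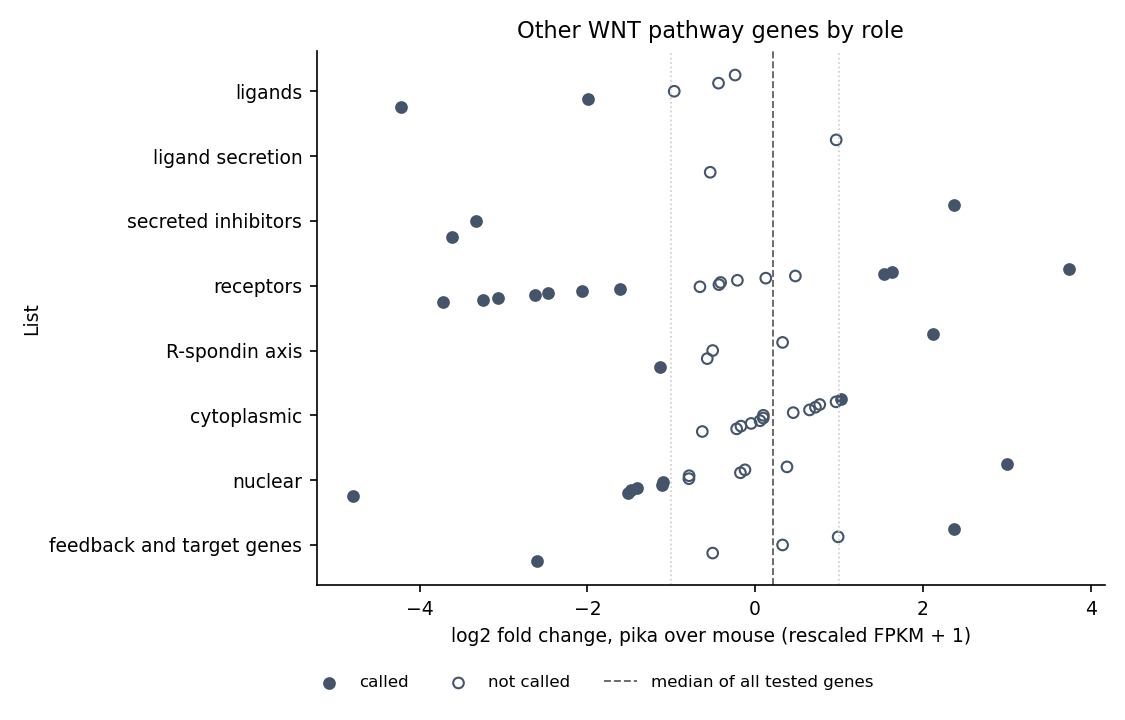
Log2 fold change, pika over mouse, of the tested pathway genes other than the 10 members, by list, filled where called and open where not. Dotted lines mark the fold minimum and the dashed line the median of all tested genes, 0.21. Receptors reach from -3.72 to 3.74, and 12 of 13 cytoplasmic genes lie inside the minimum.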

How the data were processed

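RNA-seq of cultured fibroblasts was compared between 3 pika and 3 mouse libraries. The authors deposited 1 FPKM value per gene and library. CASAVA 1.9, STAR 2.6.1a, featureCounts and edgeR 3.28.1 are listed without order in the submitters' processing notes, with GRCm38 as the only build, also for pika. The annotations are not given in the sources used here.

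Mouse identifiers were named with a gene table (49326 of 49585 rows), and a symbol found once in each species joined 14418 genes, which held 87.1% of the pika FPKM and 37.0 to 38.3% of the mouse FPKM. Libraries were scaled to a joined total of 1000000. Genes with a mean of 1 or more in at least 1 species, in deposited FPKM before this scaling, were tested on the scaled values by limma-trend on log2(value + 1), two-sided, in R 4.3.3 with limma 3.58.1, with Benjamini-Hochberg adjustment over all tested genes. Fold changes are on this scale, which understates low genes. Whole reads, totals and model lengths were worked out from the FPKM steps, and the reads recovered added up to 95.7 to 97.0% of the totals, and where all reads of a gene share a divisor, its recovered reads and length are both low by that divisor. The mean chi-square per gene between libraries was 1.34 to 1.53 in pika and 1.17 to 1.25 in mouse, so replicate libraries differed by more than sampling noise. The fit was tested on simulated data.

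All 10 members are named. From each other list the text names up to 3 called genes with the largest absolute fold change and the uncalled gene with the highest level, and others are marked. Members and lists were chosen with earlier results of these data known. Alternatives were the pseudocount, the filter, the scaling, the trend, reads without length, a replicate block and leaving out each library. Python 3.11.15, numpy 2.4.6, pandas 2.3.3 and matplotlib 3.10.9 were also used.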

Additional observations from a re-analysis of the deposited data

How the results depend on the processing

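Without rescaling, 6029 genes were called higher and 1106 lower, against 2970 and 2433, so higher calls made up 84.5% of calls, against 55.0% with the shared total and 48.9% with median-of-ratios scaling. Other pathway genes were then called higher in 25 cases and lower in 10, against 7 and 19. Among the members, the log2 fold change of WNT5A turned to 0.13 and that of AXIN2 to 0.46, SFRP1 was called at 2.22, SFRP2 lost its call at -0.32, and LEF1, not tested, moved to -0.14. The scaling multiplies all genes of a library by the same factor, but with the pseudocount of 1 the shift differed between genes. Without rescaling WNT2 moved from -3.87 to -1.96 and AXIN2 from -0.14 to 0.46. DKK1 moved the other way, from 3.53 to 2.56. The joined genes held 87.1% of the pika FPKM and 37.0 to 38.3% of the mouse FPKM. The part of this in the shift was not tested. Without division by gene length SFRP1 turned to -0.12, DKK3 lost its call at 0.63 and LEF1 was at -1.49. With a pseudocount of 0.1, LEF1 was at -1.74, WNT2 at -5.76 (against -3.87) and DKK1 at 6.73 (against 3.53), and since DKK1 is at 0 in mouse its fitted value is set by the pseudocount and is no fold. With the filter at a deposited mean of 5 FPKM, fewer genes were tested, and 1584 genes and 12 pathway genes were called lower; WNT2, WNT4 and AXIN2 were then not tested.

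In reads without length, WNT5A held 89.2% of the ligand sum in pika and 80.5% in mouse, SFRP1 held 96.8% of the SFRP sum in pika and 91.9% in mouse, and DKK2 held 55.5% of the DKK sum in mouse. The inhibitor-to-ligand ratio was 67.2 in pika and 7.97 in mouse. Calls of WNT2, WNT4, DKK1 and DKK2 kept their direction and stayed past the threshold in each alternative that tested them. Leaving out each library in turn changed no member's call, with DKK2 between -6.15 and -5.95, WNT5A between -1.20 and -1.06 and SFRP1 between 0.90 and 0.96.

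Same-numbered libraries of the species deviated together little (correlations -0.00907, 0.0483 and 0.00925), with other pairs from -0.0421 to 0.0373. No shared effect was visible, but these values cannot decide whether same-numbered libraries were handled together. With the replicate block, 2972 genes were called higher and 2433 lower, and no member's call changed. Low reads limit WNT2, LEF1, AXIN2 and WNT4, which had 23 reads in pika. Among the other pathway genes called higher, FZD9 and NOTUM rested on 2 and 9 mouse reads. Among those called lower, TLE2, WNT16, FZD8, APCDD1 and FRZB rested on 8, 10, 12, 13 and 19 pika reads. CTNNBIP1 had 14 recovered pika reads, which may be low by a divisor, and WNT5B had none recovered in pika.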
